A study of Homo sapiens with 8 samples.

Results

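The 32 genes described here encode enzymes of cholesterol and fatty acid synthesis, the sterol regulatory element binding protein (SREBP) precursors, and the proteins that hold or release them. They were chosen by gene symbol with earlier results of these data known. All 32 were found among the 19541 symbols of the authors' deposited table. The cells were HAP1, a human cell line with a near-haploid genome, either wildtype or null for SMARCB1, SMARCA4 or both. These genes encode subunits of SWI/SNF (BAF), a chromatin remodelling complex. The 8 samples formed 4 groups of 2. Wildtype HAP1 was sampled at passages 9 and 12. The SMARCB1 null and the SMARCA4 null were each sampled at passage 12 from cells made with guides 1 and 2. The double-null samples were at passages 15 and 18, both made with guide 1 for SMARCB1 and guide 2 for SMARCA4. Passage therefore cannot be told apart from the loss of both genes in any comparison of the double null. The double null holds 1 guide for each gene, where each single null holds 2, so guide cannot be told apart there either. The labels name no separate cultures. The 2 samples of a group differ by guide in the single nulls and by passage in wildtype and the double null. The p-values reflect the spread among these samples, and how much of it is technical is unknown. In the authors' deposited table, SMARCB1 had ratios to wildtype of 0.109, 0.970 and 0.182 in the SMARCB1-null, SMARCA4-null and double-null lines. SMARCA4 had ratios of 0.947, 0.0918 and 0.152 in the same order per the authors' deposited table.

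Cholesterol is built from acetyl-CoA through mevalonate, squalene and lanosterol, and fatty acids are built from the same acetyl-CoA through malonyl-CoA. The SREBP precursors sit in the endoplasmic reticulum bound to SCAP. When sterols are plentiful, INSIG1 and INSIG2 hold that complex in place, and when sterols are scarce it moves to the Golgi, where the SREBPs are cut and released to the nucleus. SREBPs act on sterol response elements in the promoters of synthesis genes, usually together with the factors NF-Y and SP1.

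The promoters of 5 members are shown, those with a listed promoter that were called in the most comparisons and then had the largest change, so that the letters before the genes called most often can be read beside their values. INSIG1 is added as the feedback protein and SREBF2, chosen after the matches were seen, as the 1 member with a match to the sterol response element core. Each window runs from 250 bases before to 50 bases after the first start listed for the gene (RefSeq, GRCh38.p14), 5′ to 3′ on the gene's strand. Capitals mark matches on either strand to the sterol response element core (TCACNCCAC), the NF-Y box (CCAAT), the SP1 box (GGGCGG) or the E-box (CACGTG), and adjoining SP1 boxes may overlap.
SREBF1, chr17:17836937-17837236, minus strand: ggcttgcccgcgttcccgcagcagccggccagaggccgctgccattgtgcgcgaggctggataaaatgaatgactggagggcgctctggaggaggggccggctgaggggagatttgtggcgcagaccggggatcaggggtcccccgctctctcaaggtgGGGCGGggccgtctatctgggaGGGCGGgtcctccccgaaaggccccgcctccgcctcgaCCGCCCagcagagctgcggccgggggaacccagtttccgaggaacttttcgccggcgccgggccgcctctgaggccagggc
AACS, chr12:125065185-125065484, plus strand: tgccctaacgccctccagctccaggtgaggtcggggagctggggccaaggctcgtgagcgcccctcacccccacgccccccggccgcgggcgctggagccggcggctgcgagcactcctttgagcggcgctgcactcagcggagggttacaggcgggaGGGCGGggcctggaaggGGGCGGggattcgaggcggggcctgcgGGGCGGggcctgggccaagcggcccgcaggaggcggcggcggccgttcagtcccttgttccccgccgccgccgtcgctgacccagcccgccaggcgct
CYP51A1, chr7:92134428-92134727, minus strand: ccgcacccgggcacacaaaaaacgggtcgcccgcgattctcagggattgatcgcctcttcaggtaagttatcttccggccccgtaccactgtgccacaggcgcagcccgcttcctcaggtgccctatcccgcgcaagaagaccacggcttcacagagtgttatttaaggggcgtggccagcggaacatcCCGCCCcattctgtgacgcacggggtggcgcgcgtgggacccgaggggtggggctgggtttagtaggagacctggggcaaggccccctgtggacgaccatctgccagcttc
HMGCS1, chr5:43313363-43313662, minus strand: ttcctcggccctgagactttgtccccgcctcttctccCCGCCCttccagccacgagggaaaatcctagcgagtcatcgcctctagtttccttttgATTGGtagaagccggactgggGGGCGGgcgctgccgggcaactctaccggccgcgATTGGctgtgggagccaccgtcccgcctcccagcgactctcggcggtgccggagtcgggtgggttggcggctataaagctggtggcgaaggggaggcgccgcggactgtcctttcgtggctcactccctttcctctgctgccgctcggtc
FADS2, chr11:61815953-61816252, plus strand: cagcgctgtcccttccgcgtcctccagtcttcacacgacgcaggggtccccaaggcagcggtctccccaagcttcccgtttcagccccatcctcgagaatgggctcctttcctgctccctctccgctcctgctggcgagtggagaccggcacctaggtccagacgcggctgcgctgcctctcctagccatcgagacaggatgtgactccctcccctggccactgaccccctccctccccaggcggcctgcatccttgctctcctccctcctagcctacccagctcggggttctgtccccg
INSIG1, chr7:155297628-155297927, plus strand: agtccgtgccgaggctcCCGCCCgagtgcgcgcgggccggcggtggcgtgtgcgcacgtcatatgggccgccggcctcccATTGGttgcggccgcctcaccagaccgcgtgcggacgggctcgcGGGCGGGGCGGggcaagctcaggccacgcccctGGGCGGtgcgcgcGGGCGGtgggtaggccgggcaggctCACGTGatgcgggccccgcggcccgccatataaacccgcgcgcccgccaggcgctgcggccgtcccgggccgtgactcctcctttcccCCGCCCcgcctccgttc
SREBF2, chr22:41832855-41833154, plus strand: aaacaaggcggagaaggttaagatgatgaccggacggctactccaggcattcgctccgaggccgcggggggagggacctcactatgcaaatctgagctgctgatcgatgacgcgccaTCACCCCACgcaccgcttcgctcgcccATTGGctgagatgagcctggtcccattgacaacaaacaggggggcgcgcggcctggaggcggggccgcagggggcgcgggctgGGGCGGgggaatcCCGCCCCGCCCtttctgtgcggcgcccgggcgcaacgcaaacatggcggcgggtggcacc

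A listed promoter was found for 28 of the 32 members, and 9 of these genes have more than 1 listed start, of which the first was read. FADS2 had no match to any of the 4 motifs, whereas INSIG1 had 8. The NF-Y box was found in 16 of 28 member promoters (57.1%) and in 35.7% of all 27305 promoters of the same length. The SP1 box was found in 26 of 28 (92.9%) against 44.6% of all promoters, and the E-box in 3 of 28 (10.7%) against 7.43%. The sterol response element core was found in SREBF2 alone among the 28, and in 1.15% of all promoters. Only the exact letters of that core were searched, so other forms of the element were not counted. The shares of all promoters were not limited to expressed genes, whereas each member held at least 9793 reads. A match describes these letters in this window and no binding was measured.

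**Figure D1:**
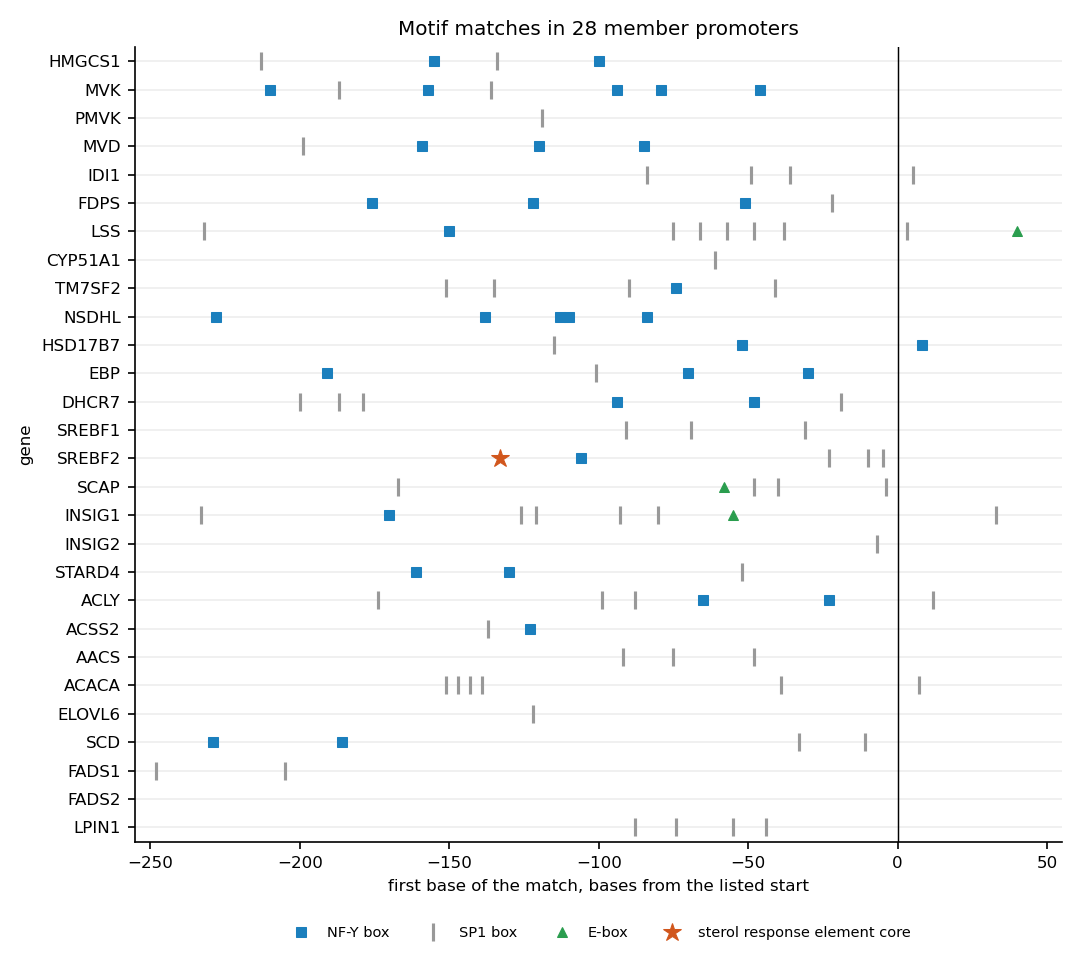
Position of each motif match in the 28 member promoters, with the horizontal axis giving bases from the listed start (0) and 1 row per gene. NF-Y boxes (squares) stand in 16 rows, SP1 boxes (bars) in 26, E-boxes (triangles) in 3 and the sterol response element core (star) in the SREBF2 row.

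Levels are given in RPM, the reads of a gene per M reads of its library, where M stands for the SI prefix mega. For 9 members with a whole read total, the reads of each library were recovered from the deposited ratios and totals, and each group's pair of libraries could be told apart as deeper and shallower but not by passage or guide. For the other 23 members the level of each group was computed from the total and the 3 ratios, which on recovered genes with at least 10000 reads missed the group mean by a median of 0.266% and by 0.831% at the 95th percentile in wildtype. Libraries held 67.9 to 103 M reads, and the members held 9793 to 691294 reads over all libraries. A gene was called at a false discovery rate (FDR, the Benjamini-Hochberg adjusted p-value) under 0.05 per the authors' deposited table. RNA per cell was not measured, so a lower share of reads and fewer transcripts per cell cannot be told apart.

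The SMARCA4 null had higher levels of many of these genes, and the SMARCB1 null and the double null had lower levels of some. In the authors' deposited table, 12 of 32 members rose and 1 fell in the SMARCA4 null, while 7.39% and 4.49% of all genes did. In the SMARCB1 null, 3 rose and 5 fell, beside 7.86% and 5.76% of all genes per the authors' deposited table. With both genes lost, 2 rose and 5 fell, beside 12% and 5.97% of all genes per the authors' deposited table. The median log2 ratio of the members to wildtype per the authors' deposited table was 0.35 for the SMARCA4 null, -0.13 for the SMARCB1 null and -0.12 for the double null, where the medians of 14418 genes with at least 500 reads were 0.03, 0.05 and 0.09. Of the 32 members, 15 were called in at least 1 comparison and 5 (HMGCS1, FDFT1, CYP51A1, SREBF1 and AACS) in all 3, beside 24.8% and 5.48% of all genes, per the authors' deposited table. The 3 comparisons share the wildtype libraries. The shares of all genes called were not limited to genes with many reads, whereas each member held at least 9793. Because the members were chosen with earlier results of these data known, their counts beside all genes are a description and no independent test.

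**Figure D2:**
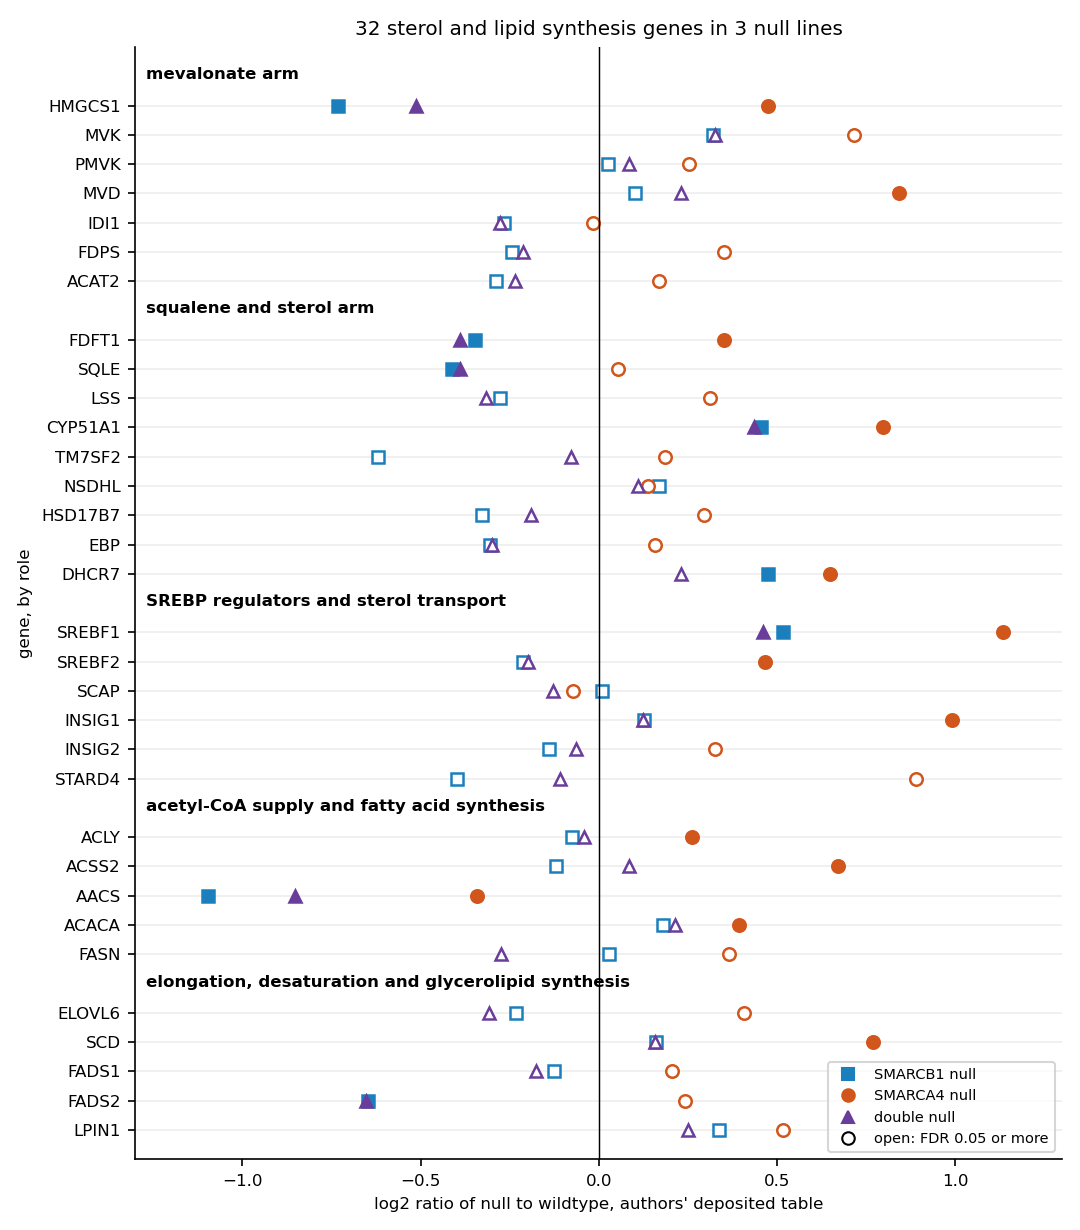
Log2 ratio of each null to wildtype for the 32 members per the authors' deposited table, in 5 groups by role, with filled symbols for an FDR under 0.05. In the SMARCA4 null (circles) 29 of 32 members lie right of 0, in the SMARCB1 null (squares) 13 and in the double null (triangles) 12.

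In the mevalonate arm, which turns acetyl-CoA into farnesyl diphosphate, HMGCS1 and MVD rose in the SMARCA4 null, and HMGCS1 fell in the other nulls. HMGCS1, which makes HMG-CoA, stood at 201 RPM in wildtype, 121 with SMARCB1 lost, 279 with SMARCA4 lost and 141 with both lost. Its log2 ratios per the authors' deposited table were -0.73 (FDR 7.28e-06), 0.47 and -0.51 in that order, and all passed the test. HMGCS1 thus lay above wildtype in the SMARCA4 null and below it in both lines that lack SMARCB1. MVD, which makes isopentenyl diphosphate, was recovered at 36.0 and 38.7 RPM in the deeper and shallower wildtype libraries and at 61.2 and 72.7 in those of the SMARCA4 null. It stood at 39.8 and 40.3 in the SMARCB1 null and at 41.6 and 46.0 in the double null. Both SMARCA4-null libraries of MVD lay above all 6 others. Both lay above both wildtype libraries for 37.0% of 2324 recovered genes with at least 10000 reads. The share of genes with both above all 6 others was not computed. The log2 ratio of MVD to wildtype there was 0.84 (FDR 0.00792) per the authors' deposited table. MVK, PMVK, IDI1, FDPS and ACAT2 did not pass the test in any null. Among them the log2 ratios of the authors' deposited table ran from -0.01 (IDI1) to 0.72 (MVK, FDR 0.114) in the SMARCA4 null.

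In the squalene and sterol arm, CYP51A1 rose in all 3 nulls, SQLE fell in the 2 lines that lack SMARCB1, and FDFT1 was called in opposite directions. SQLE, squalene epoxidase, was recovered at 147 and 152 RPM in the deeper and shallower wildtype libraries, at 117 and 108 in the SMARCB1 null, at 154 and 156 in the SMARCA4 null and at 117 and 112 in the double null. All 4 libraries without SMARCB1 lay below all 4 with it. Over 2324 recovered genes with at least 10000 reads, both libraries lay below both wildtype libraries for 25.5% in the SMARCB1 null and 25.2% in the double null. These shares compare 1 null with wildtype at a time, and the share with the pattern of SQLE over all 4 groups was not computed. The log2 ratios of SQLE to wildtype per the authors' deposited table were -0.41 (FDR 0.0142), 0.05 (FDR 0.919) and -0.39 (FDR 0.0182) in the order of the nulls just given. The edgeR test described below called both falls, but lost that of the SMARCB1 null without its shallower library or either wildtype library (adjusted p 0.0628 to 0.0968), and that of the double null without either wildtype library (0.0676 and 0.0962). FDFT1, squalene synthase, stood at 237 RPM in wildtype, 187 with SMARCB1 lost, 303 with SMARCA4 lost and 181 with both lost. It fell by 0.35 and 0.39 (log2) in the SMARCB1 and double nulls (FDR 0.0325 and 0.0110) and rose by 0.35 in the SMARCA4 null (FDR 0.0116), per the authors' deposited table. CYP51A1, the lanosterol demethylase, went from 111 RPM in wildtype to 152, 193 and 150 in the SMARCB1-null, SMARCA4-null and double-null lines. Its log2 ratios of 0.46, 0.80 and 0.44 per the authors' deposited table all passed the test (FDR 0.00445 in the SMARCB1 null and 0.00612 in the double null). DHCR7, the reductase of the last step to cholesterol, rose by 0.47 in the SMARCB1 null (FDR 0.0273) and 0.65 in the SMARCA4 null on the log2 scale, and was at 0.23 (FDR 0.410) in the double null, per the authors' deposited table. LSS, TM7SF2, NSDHL, HSD17B7 and EBP were called in no null.

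Among the SREBP regulators, SREBF1, INSIG1 and SREBF2 rose in the SMARCA4 null, and SREBF1 rose in the other nulls as well. SREBF1, which encodes the precursor tied mostly to fatty acid synthesis, stood at 101 RPM in wildtype, 145 with SMARCB1 lost, 222 with SMARCA4 lost and 139 with both lost. Its log2 ratios per the authors' deposited table were 0.52 (FDR 0.0164), 1.13 and 0.46 (FDR 0.0355) in that order. SREBF1 had the largest rise of the 32 members in each of the SMARCB1-null, SMARCA4-null and double-null lines. INSIG1, itself a target of SREBPs, stood at 62.9, 68.7, 125 and 68.6 RPM in wildtype and the SMARCB1-null, SMARCA4-null and double-null lines. On the log2 scale INSIG1 rose by 0.99 in the SMARCA4 null and was at 0.13 (FDR 0.834) and 0.12 (FDR 0.783) in the SMARCB1 and double nulls per the authors' deposited table. SREBF2, whose protein acts mostly on sterol synthesis, went from 298 RPM in wildtype to 412 in the SMARCA4 null, a log2 ratio of 0.47 per the authors' deposited table. It stood at 257 in the SMARCB1 null and 260 in the double null, with log2 ratios of -0.21 (FDR 0.202) and -0.20 (FDR 0.200) per the authors' deposited table. SCAP and INSIG2 passed the test in no null. SCAP was recovered at 124 and 125 RPM in the deeper and shallower wildtype libraries, 127 and 123 in the SMARCB1 null, 121 and 115 in the SMARCA4 null and 105 and 122 in the double null. INSIG2 was recovered at 19.6 and 20.8 in wildtype, 17.4 and 19.3 in the SMARCB1 null, 21.2 and 29.6 in the SMARCA4 null and 20.6 and 18.1 in the double null. The 2 SMARCA4-null libraries of INSIG2 differed by a factor of 1.40, and its log2 ratio there was 0.33 (FDR 0.754) per the authors' deposited table. STARD4, a sterol carrier, had a log2 ratio of 0.89 in the SMARCA4 null that missed the threshold (FDR 0.0595) per the authors' deposited table.

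**Figure D3:**
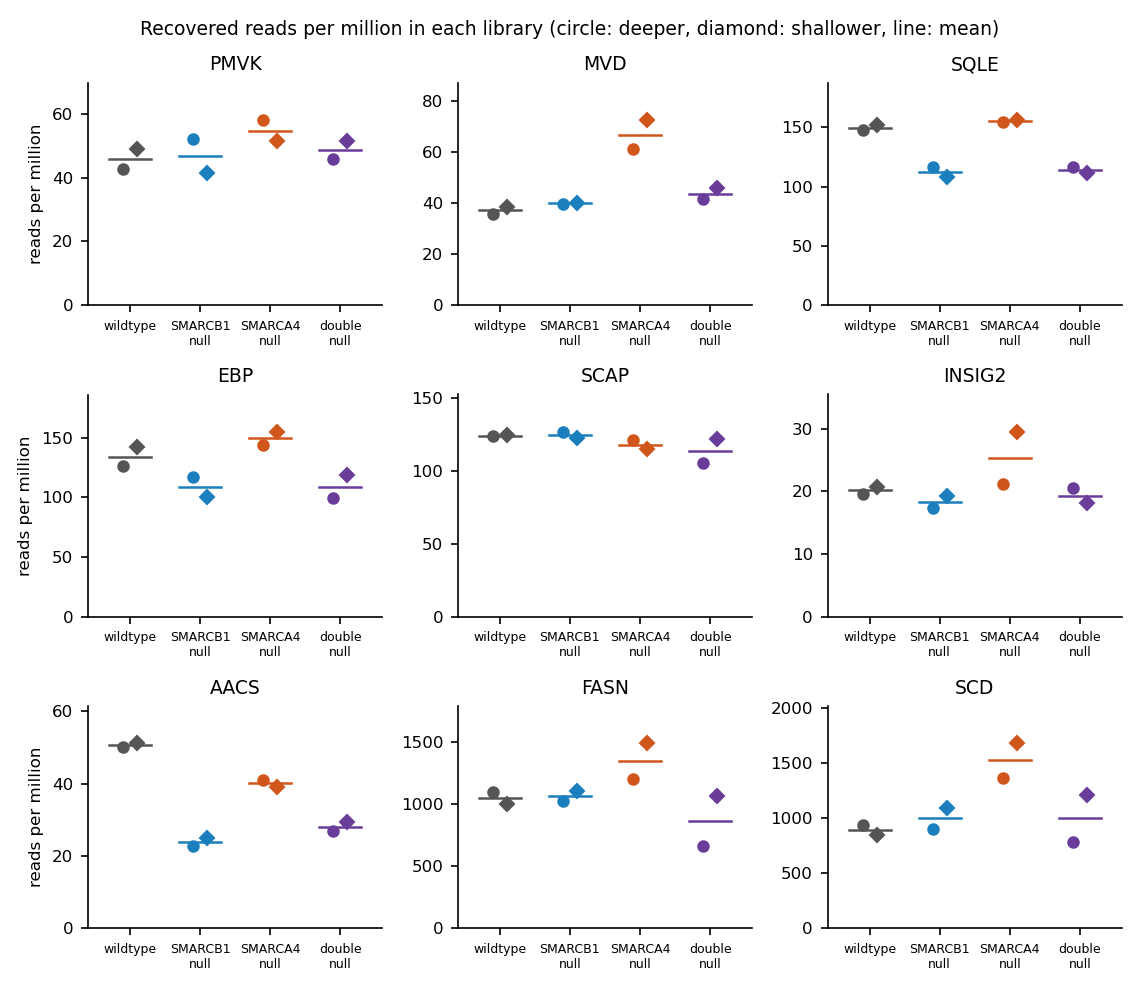
Recovered RPM of the 9 members in each of the 8 libraries, with circles for the deeper and diamonds for the shallower library of a group, lines for the mean of the 2 and vertical axes from 0. For AACS the 4 groups do not overlap, and for FASN and SCD the 2 double-null libraries differ by factors of 1.61 and 1.55.

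Among the enzymes of acetyl-CoA supply and fatty acid synthesis, AACS fell in all 3 nulls and ACLY, ACSS2 and ACACA rose in the SMARCA4 null. AACS, which makes acetoacetyl-CoA from the ketone body acetoacetate, was recovered at 50.3 and 51.3 RPM in the deeper and shallower wildtype libraries, 22.7 and 24.9 in the SMARCB1 null, 41.1 and 39.1 in the SMARCA4 null and 26.9 and 29.3 in the double null. The groups did not overlap, with wildtype highest and the SMARCB1 null lowest. Of 2324 recovered genes with at least 10000 reads, 25.5%, 28.7% and 25.2% also had both libraries below both wildtype libraries in the SMARCB1, SMARCA4 and double nulls. These shares take each null alone, and the share of genes without overlap among all the groups was not computed. Its log2 ratios to wildtype per the authors' deposited table were -1.10 (FDR 2.77e-16), -0.34 (FDR 0.0290) and -0.85 in the order of the nulls just given. With edgeR the fall of the SMARCA4 null had an adjusted p of 0.0426, and it was lost without any library of the wildtype, SMARCB1-null or SMARCA4-null groups (0.0676 to 0.293). AACS was the 1 member in the authors' deposited table of selected genes. That table gave a ratio of 0.468 in the SMARCB1 null, as the full table did, but much smaller FDRs. These were 1.93e-35, 7.49e-05 and 3.48e-24 in the SMARCB1-null, SMARCA4-null and double-null lines. Why the FDRs differ is not stated in the sources used. ACLY, which makes acetyl-CoA from citrate, stood at 435 RPM in wildtype and 521 in the SMARCA4 null, a log2 ratio of 0.26 (FDR 0.0121) per the authors' deposited table. ACSS2, which makes acetyl-CoA from acetate, stood at 29.7 and 47.3, a log2 ratio of 0.67 (FDR 0.0219) per the authors' deposited table. ACACA, which makes malonyl-CoA, stood at 307 and 403, a log2 ratio of 0.39 per the authors' deposited table. None of these 3 was called in the SMARCB1 or the double null, where their log2 ratios lay between -0.12 and 0.21 per the authors' deposited table. FASN, the fatty acid synthase, was recovered at 1097 and 998 RPM in the deeper and shallower wildtype libraries, 1029 and 1107 in the SMARCB1 null, 1204 and 1493 in the SMARCA4 null and 665 and 1068 in the double null. It passed the test in no null, and its double-null libraries lay on both sides of the lower wildtype library. With edgeR its log2 change in the double null was -0.65 without the shallower library of that group (adjusted p = 0.00324) and 0.03 without the deeper (adjusted p = 0.902). Its log2 change of 0.36 in the SMARCA4 null reached an edgeR adjusted p of 0.0233 or 0.0317 when the deeper or the shallower double-null library was left out.

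Among the enzymes of elongation, desaturation and glycerolipid synthesis, FADS2 fell in the 2 lines that lack SMARCB1 and SCD rose in the SMARCA4 null. FADS2, the desaturase of the first step of polyunsaturated fatty acid synthesis, stood at 338 RPM in wildtype, 216 with SMARCB1 lost, 399 with SMARCA4 lost and 215 with both lost. Its log2 ratios per the authors' deposited table were -0.65 (FDR 6.82e-08), 0.24 (FDR 0.0624) and -0.65. SCD, which puts the first double bond into saturated fatty acids, was recovered at 941 and 847 RPM in the deeper and shallower wildtype libraries, 905 and 1094 in the SMARCB1 null, 1366 and 1682 in the SMARCA4 null and 782 and 1214 in the double null. Both SMARCA4-null libraries of SCD lay above the other 6. Both lay above both wildtype libraries for 37.0% of recovered genes with at least 10000 reads. The share of genes with both above the other 6 was not computed. The log2 ratio of SCD to wildtype there was 0.77 (FDR 0.0109) per the authors' deposited table. The edgeR quasi-likelihood test on recovered reads did not call that rise (log2 change 0.77 ± 0.25 (SE), adjusted p = 0.119). The same edgeR test gave an adjusted p of 0.00200 without the deeper and 0.00294 without the shallower double-null library, while DESeq2 gave 0.0373. In the double null the libraries of FASN and SCD differed by factors of 1.61 and 1.55, where the 95th percentile over 2324 recovered genes with at least 10000 reads was 1.40. ELOVL6, FADS1 and LPIN1 were called in no null.

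**Figure D4:**
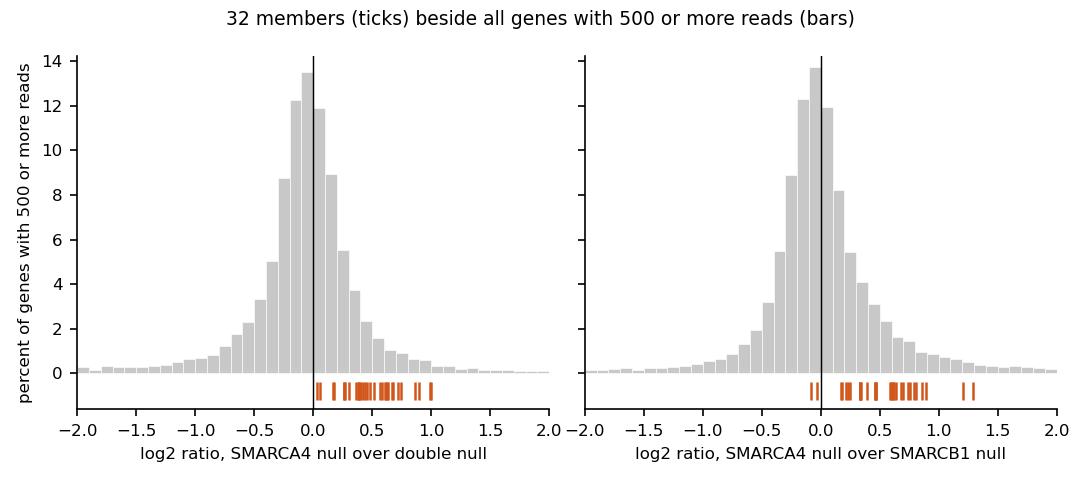
Distribution of the log2 ratio of the SMARCA4 null to the double null (left) and to the SMARCB1 null (right) over 14418 genes with at least 500 reads, as percent of genes per bin of 0.1, with a tick below the axis for each of the 32 members. All 32 ticks lie right of 0 on the left and 30 on the right.

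Set against each other, the nulls fell into 2 levels for most members, with the SMARCA4 null above the other 2. These ratios between nulls, formed from the ratios of the authors' deposited table, do not use the wildtype level. The SMARCA4 null was above the double null for 32 of 32 members, by a median log2 ratio of 0.47 and a range from 0.03 (NSDHL) to 1.00 (STARD4). Over the 14418 genes with at least 500 reads the share above was 40.6% and the median -0.07. The SMARCA4 null was above the SMARCB1 null for 30 of 32 members, the exceptions being SCAP and NSDHL, with a median log2 ratio of 0.53, beside 46.2% of all those genes and a median of -0.03. Both ratios share the SMARCA4-null libraries. The double null was above the SMARCB1 null for 17 of 32 members, with a median log2 ratio of 0.01, beside 55.9% of those genes. These are counts and medians without a test, for members chosen with earlier results of these data known.

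The 9 members with recovered reads allowed a test between nulls with edgeR's quasi-likelihood test over 4891 genes with Benjamini-Hochberg adjustment. Between the double null and the SMARCA4 null, 4 of the 9 members (MVD, SQLE, EBP and AACS) were lower and 0 higher at an adjusted p under 0.05, beside 5.4% and 8.06% of all genes tested. Of the 9 members, 5 were lower at an unadjusted edgeR p under 0.05 in that contrast, beside 10.5% of all genes tested. DESeq2 called 5 of the 9, all lower, beside 8.89% of the 5400 genes it tested. The log2 changes were -0.61 ± 0.11 (SE) for MVD (edgeR adjusted p = 0.00403), -0.44 ± 0.09 for SQLE, -0.46 ± 0.12 for EBP and -0.51 ± 0.10 for AACS. Between the SMARCA4 null and the SMARCB1 null, MVD, SQLE, EBP and AACS were higher and 0 members lower, beside 7.44% and 6.62% of all genes tested. Both contrasts use the same 2 SMARCA4-null libraries, so the second is no independent repeat of the first. The log2 changes there were 0.74 ± 0.11 (SE) for MVD, 0.47 ± 0.09 for SQLE, 0.46 ± 0.12 for EBP and 0.76 ± 0.10 for AACS (edgeR adjusted p = 5.73e-04). EBP, the sterol isomerase, was recovered at 126 and 142 RPM in the deeper and shallower wildtype libraries, 117 and 100 in the SMARCB1 null, 144 and 155 in the SMARCA4 null and 99.2 and 119 in the double null. Its edgeR calls between nulls were lost without any of 7 of the 8 libraries for the double null (adjusted p 0.0542 to 0.294) and without any library of the wildtype, SMARCB1-null or SMARCA4-null groups for the SMARCB1 null (0.0786 to 0.293). Without the deeper or the shallower SMARCA4-null library, the double-null contrast was lost for SQLE (edgeR adjusted p = 0.0661 and 0.0903) and AACS (0.0909 and 0.0732), and without the shallower it was lost for MVD (0.0994). The SMARCB1-null contrast of SQLE was lost without either SMARCA4-null library or the shallower SMARCB1-null library (edgeR adjusted p 0.0519 to 0.0691). FASN and SCD, at log2 changes of -0.64 and -0.61 in the double null against the SMARCA4 null, were not called (edgeR adjusted p = 0.175 and 0.188), but were without the shallower double-null library (2.83e-04 and 0.00183).

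**Figure D5:**
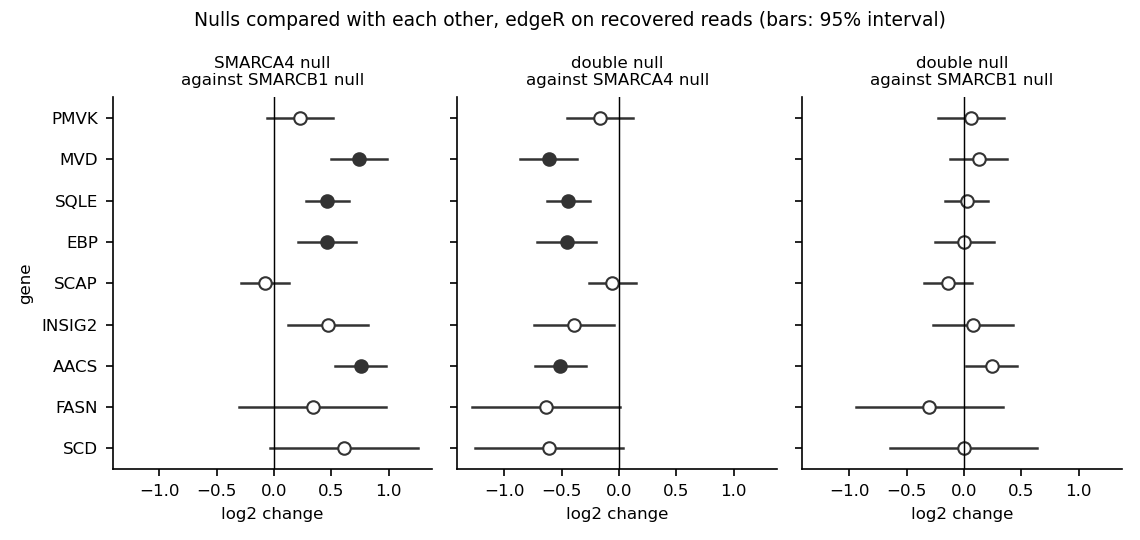
Log2 change of the 9 recovered members between pairs of nulls, with bars for the 95% interval computed from edgeR's quasi-likelihood fit. Filled points mark an adjusted p under 0.05. MVD, SQLE, EBP and AACS are filled in the 2 panels with the SMARCA4 null, and no point is filled between the double null and the SMARCB1 null.

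Between the double null and the SMARCB1 null, 0 of the 9 members were called by edgeR or DESeq2, beside 2.49% of genes tested higher and 1.19% lower with edgeR and 6.77% and 4.4% with DESeq2. AACS had an unadjusted edgeR p under 0.05, with a log2 change of 0.24, a 95% interval from 0.02 to 0.47 and an adjusted p of 0.236. The 95% interval of the log2 change was -0.17 to 0.21 for SQLE, -0.25 to 0.26 for EBP and -0.12 to 0.38 for MVD. For FASN it was wider, from -0.94 to 0.34, so a difference of the size seen between the double null and the SMARCA4 null (-0.64) lies inside it. Without the shallower double-null library the log2 change of FASN against the SMARCB1 null was -0.68 and was called (edgeR adjusted p = 0.00414), and without the deeper it was 0.00 (edgeR adjusted p = 1.0).

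The 4 groups also allow the effect of SMARCB1 loss to be compared between cells with and without SMARCA4. With SMARCA4 present, that is, in the SMARCB1 null against wildtype, 19 of 32 members had a ratio below 1, and with SMARCA4 lost, in the double null against the SMARCA4 null, 32 of 32 had. The log2 effect was lower in the SMARCA4-null background for 29 of 32 members, by a median of -0.33, where the median over 14418 genes was 0.01 and 50.9% lay above 0. These values come from the same libraries as the ratios above and are no independent result. With the double null near the SMARCB1 null for most members, they are close to the SMARCA4-null ratio to wildtype with its sign reversed. With edgeR's interaction term, 2 of the 9 recovered members were called, MVD lower and AACS higher, beside 3.68% of genes tested lower and 2.62% higher. The difference was -0.72 ± 0.16 (SE) on the log2 scale for MVD (edgeR adjusted p = 0.0211) and 0.58 ± 0.14 for AACS (edgeR adjusted p = 0.0352). MVD had a log2 change of 0.10 on SMARCB1 loss in wildtype and -0.61 in the SMARCA4 null. AACS fell in both, by 1.10 in wildtype and by 0.51 in the SMARCA4 null on the log2 scale. For SQLE the difference was -0.03 with a 95% interval from -0.30 to 0.24. Both calls were lost without any of the wildtype, SMARCB1-null or SMARCA4-null libraries, with adjusted p up to 0.233 for AACS and 0.197 for MVD over all alternatives.

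Other genes around these pathways are given from lists of genes that are not members. Their counts are to be read against the shares of all genes called per the authors' deposited table: 7.86% rose and 5.76% fell in the SMARCB1 null, 7.39% and 4.49% in the SMARCA4 null and 12% and 5.97% in the double null. Among 17 other sterol genes, 3 rose and 1 fell in the SMARCA4 null, 1 rose and 1 fell in the SMARCB1 null, and 1 rose and 2 fell in the double null, per the authors' deposited table. At 5.88% higher and 5.88% lower, the share in the SMARCB1 null was near that of all genes per the authors' deposited table. The shares were 17.6% higher and 5.88% lower in the SMARCA4 null, and 5.88% and 11.8% in the double null. The median log2 ratios of these 17 genes were 0.10 in the SMARCA4 null, 0.14 in the SMARCB1 null and 0.12 in the double null. Those of the members were 0.35, -0.13 and -0.12 in that order, per the authors' deposited table. LBR, a nuclear envelope protein that is also a sterol reductase, fell in all 3 nulls, with ratios to wildtype of 0.698, 0.596 and 0.508 in the SMARCB1-null, SMARCA4-null and double-null lines per the authors' deposited table. MSMO1, a sterol demethylase, rose in the SMARCA4 null with a ratio of 1.53 (FDR 0.00839), and its ratios of 0.698 (FDR 0.106) and 0.743 (FDR 0.172) in the SMARCB1 and double nulls did not pass the test, per the authors' deposited table. LIPA, the lysosomal acid lipase, rose in all 3 nulls, with ratios of 1.67, 1.47 and 1.52 per the authors' deposited table. Of 8 cholesterol efflux and LXR genes, 0 were called in any null per the authors' deposited table.

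Of 29 other fatty acid synthesis genes, 7 rose and 2 fell in the SMARCB1 null, 6 rose and 2 fell in the SMARCA4 null, and 6 rose and 3 fell in the double null, per the authors' deposited table. The shares that rose were 24.1%, 20.7% and 20.7%, beside 7.86%, 7.39% and 12% of all genes, per the authors' deposited table. ELOVL3, an elongase of long saturated fatty acids, had ratios of 8.62, 8.40 and 5.64 per the authors' deposited table, each called (FDR 0.0497 in the double null). SCD5, the second stearoyl-CoA desaturase, fell to ratios of 0.298 in the SMARCB1 null and 0.407 in the SMARCA4 null, but was at 1.61 (FDR 0.130) in the double null, per the authors' deposited table. MID1IP1, which activates acetyl-CoA carboxylase, fell to a ratio of 0.432 in the double null (FDR 1.55e-16) and 0.793 in the SMARCB1 null per the authors' deposited table. ACSL6, an acyl-CoA synthetase, rose in the double null with a ratio of 6.20 (FDR 0.0168) per the authors' deposited table. Of 24 glycerolipid synthesis genes, 3 rose in each null and 1, 1 and 0 fell in the SMARCB1-null, SMARCA4-null and double-null lines, per the authors' deposited table. Each 3 make 12.5% of the list, near the 12% of all genes that rose in the double null per the authors' deposited table. It was above the 7.86% and 7.39% of all genes that rose in the SMARCB1 and SMARCA4 nulls. Their largest rises were PCYT1B in the SMARCB1 null (ratio 2.53), AGPAT9 in the SMARCA4 null (6.36) and DGAT2 in the double null (2.10), per the authors' deposited table. Of 25 fatty acid oxidation genes, 2 rose (8%) and 0 fell in each null per the authors' deposited table, where the share that rose was near that of all genes in the single nulls and below it in the double null.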

How the data were processed

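RNA-seq of 8 HAP1 samples was used. The submitters' processing notes name STAR, Partek 4.0 and hg19. The authors' test, scaling and annotation are not stated in the sources used. Per the labels' protocols, Trizol RNA went into a stranded mRNA library kit. The deposited table gives, per the file headers, each gene's total reads over all samples (an estimated count made by the authors), and for each comparison the ratio of null to wildtype, its p-value and its FDR, as the authors computed them. The signed fold deposited by the authors, a score equal to the ratio or minus its inverse, was not used.

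The members and lists were chosen with earlier results of these data known. Named are members called in at least 1 comparison, INSIG1, INSIG2, SREBF1, SREBF2 and SCAP, other members by range, and from each list the called gene with the largest rise and fall per comparison among those with at least 500 reads. FDRs are the authors', from their full table unless stated, log2 ratios were computed from their ratios, and members were counted at an FDR under 0.05.

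Reads per library were solved from the 3 ratios and a whole total, an analysis added after the data were seen. Whole reads were found for 6392 of 7625 genes tried. A solution was accepted where under 1e-06 others were expected by counting. The acceptance rule was revised several times after the members' outcome had been seen, and last tightened after decoys had passed. Of 1000 decoys with shifted ratios, 21 passed an earlier limit of 0.001 and 0 the final one. On simulated reads 558 of 600 genes were solved, 0 wrongly, and 0 of 600 with fractional reads passed. Of the members, EBP, FASN and SCD lay nearest the limit. These reads were tested with edgeR 4.0.16 in R 4.3.3, by robust quasi-likelihood with all 8 libraries and scaling as in the ratios, on 4891 genes kept by filterByExpr. Standard errors are the log2 change over the root of F. The 95% intervals were built from these standard errors and Student's t. Its degrees of freedom were solved from each gene's largest F and the p-value of that test. The edgeR steps were tested on simulated data. Of the genes tested, edgeR and the authors' deposited FDR both called 510 (SMARCB1 null), 417 (SMARCA4 null) and 722 (double null), which were 72.0%, 66.2% and 75.4% of the authors' calls and 52.6%, 54.0% and 58.4% of edgeR's, all in the same direction. Alternatives were other FDR limits, centring, TMM, DESeq2 1.42.0, no filter and each library left out. Figures were drawn with matplotlib 3.10.9. Of the motifs, a match on either strand was counted once per position. Protein sequences were not used here.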

Additional observations from a re-analysis of the deposited data

Results flagged for a closer look

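The effect of SMARCB1 loss differed between the wildtype and the SMARCA4-null background for 2 of the 9 members with recovered reads, by edgeR's interaction term. For MVD the difference was -0.72 on the log2 scale (edgeR adjusted p = 0.0211, 95% interval -1.06 to -0.37). For AACS it was 0.58 (edgeR adjusted p = 0.0352, 95% interval 0.27 to 0.90). Both calls were lost without any of the wildtype, SMARCB1-null or SMARCA4-null libraries. Over all alternatives the difference ran from -0.83 to -0.59 for MVD and from 0.52 to 0.65 for AACS. The double null was sampled at later passages than the other lines. It held only guide 1 for SMARCB1 and guide 2 for SMARCA4, while each single null held both guides. Neither passage nor guide can be told apart from the difference between backgrounds.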

How the results depend on the processing

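At an FDR under 0.01, 4, 8 and 4 members were called in the SMARCB1-null, SMARCA4-null and double-null lines in place of 8, 13 and 7, and with a change of at least 1.5 times as well as an FDR under 0.05, 3, 7 and 2. At an FDR under 0.1 the counts were 8, 17 and 7. Centring on the median gene kept the direction of all these calls and of the 3 medians. Of the 9 recovered members the authors' FDR called 2, 3 and 2 against wildtype, and edgeR called 2, 2 and 2, beside 14.5%, 12.9% and 19.6% of the 4891 genes tested with the authors' FDR and 19.8%, 15.8% and 25.3% with edgeR, so the edgeR counts are near the shares of all genes. Without a filter on low counts edgeR called 1 in the SMARCA4 null, and DESeq2 called 4 in the double null, where EBP and SCAP were added as lower. EBP was also called lower in both lines without SMARCB1 under TMM scaling (adjusted p = 0.0351 and 0.0180). With 1 library left out the counts ranged from 1 to 3, 1 to 4 and 1 to 4 against wildtype, from 0 to 6 for the double null against the SMARCA4 null, from 0 to 1 against the SMARCB1 null, from 2 to 7 between the single nulls and from 0 to 4 for the interaction. Where this left a group with 1 library, it was assumed to vary like the others. The interaction without a filter called 1. All 9 members stayed higher in the SMARCA4 null than in the double null except 1 of 9 without the deeper double-null library. Of edgeR's calls, 64.1%, 66.7% and 70.8% were higher in the SMARCB1-null, SMARCA4-null and double-null lines than in wildtype, and 50.7%, 56.2% and 51.4% after TMM scaling. Between the double and the SMARCA4 null 59.9% were higher, and 46.7% with TMM, which moved the median log2 change of the double null against wildtype from 0.14 to 0.01. No paired analysis was possible because the deposited table has no columns per library, and recovered libraries carry no passage or guide. Reads of 23 members could not be recovered, so their spread between libraries is unknown.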
